A study of Mus musculus with 8 samples.

Results

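The genes described here encode very large proteins that work in the cytosol, on vesicles or in the nucleus and are not part of the actin cytoskeleton. The 33 genes were listed by name, as enzymes, ubiquitin ligases, kinases, tethers and scaffolds whose proteins are of great size. The rule uses no measured value, but the list was made with earlier results of these data known. They were set beside large actin-associated proteins to ask whether transcripts of big proteins came down in a pulldown without actin binding. Of the 33 genes, 32 had at least 1 of the 46643 probesets on the array, 93 probesets in all, and Ubr4 had none. The sizes of the proteins were not analysed here.

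RNA was measured in 4 eluates and 4 inputs on Illumina Sentrix-6 mouse arrays, on which each probeset reports the signal of 1 transcript sequence. All 8 samples came from MPC-5 podocytes, a mouse cell line that grows only under permissive conditions, differentiated for 14 days at 37°C. The cells stably expressed a tagged form of WT1(+KTS), which is an isoform of a transcription factor that podocytes need. An eluate is the RNA collected from IgG beads after cell extract had been incubated with them, the beads had been washed and TEV protease had been added. An input is the RNA of an extract kept for as long without beads. Each array was hybridized with material amplified from 650 ng of RNA, so the signal follows the share of a transcript in the RNA and not its amount, and none of the arrays carried a pulldown from cells without the tag or an elution without the protease. These arrays alone cannot tell whether a transcript's presence in the eluate depended on the tag, on WT1(+KTS) or on cleavage. The study tested this by quantitative RT-PCR. It found Myh10 mRNA enriched also in eluates from cells with the empty vector, and with BSA in place of the protease. It reports enrichment with the empty vector for Dbn1 and other mRNAs too, without showing the data, and names none of the genes described here. For the mRNAs it identified, it concludes that neither WT1(+KTS) nor cleavage was required.

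Giant cytosolic proteins are often multienzymes that carry several catalytic domains on a single chain, or scaffolds built of repeated helical units. Because their coding sequences are very long, each of their mRNAs can hold many ribosomes and nascent chains at once. In podocytes, the cells whose foot processes cover the capillaries of the renal glomerulus, such proteins serve the same general functions as in other cells: lipid and nucleotide synthesis, protein turnover, DNA damage and nutrient signalling, and vesicle traffic.

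Median signals over all probesets were between 71.0 and 84.6 on the eluate arrays and between 64.9 and 84.3 on the input arrays. The first principal component, with 56.7% of the variance, separated input 1, input 2, eluate 1 and eluate 4 from the other 4 arrays, so that both fractions lay on both sides. Of the podocyte markers, Podxl had signals of 632 to 914 in eluates and 590 to 705 in inputs, and Synpo of 6712 to 16891 in eluates and 3605 to 10630 in inputs. The probesets of Wt1, Nphs1 and Cd2ap did not reach the level required for testing. Of the markers of other cell types, 5 were tested: Aqp1 (2081 to 11450 in eluates, 2227 to 12405 in inputs) and Lrp2 (368 to 1586, 356 to 1204) of the proximal tubule, Col1a1 (595 to 1886, 416 to 1436) and Pdgfrb (164 to 235, 144 to 208) of mesangial cells or fibroblasts, and Kdr (171 to 227, 159 to 239) of endothelium. The others with a probeset, Slc34a1, Umod, Slc12a1, Des, Thy1, Pecam1, Cdh5, Ptprc and Adgre1, did not reach that level. The part of these other cell types' transcripts in the results was not tested.

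Of the 23 genes for very large cytosolic proteins that could be tested, 3 were called higher in eluates with replicate number as the block. None reached a 2-fold difference. Testing required a signal of 100 or more on 3 or more eluate arrays. This left 13902 probesets, with 8674 named genes, and among them were 34 probesets of 23 of the 33 genes. Each gene was represented by its brightest tested probeset, and the difference of the log2 signal, eluate minus input, was tested with limma, blocked by replicate number, at a cutoff of 0.15 for the p-value adjusted over all probesets. Cad, Vps13a and Fasn passed, all 3 higher in the eluates, against a background of 1.08% of all tested genes, and none was lower, against 0.0115%. At an unadjusted p under 0.05, 8 were higher and 0 lower, where 5.73% of all tested genes were higher and 4.4% lower. With no block, 5 passed as higher (background 3.8%) and 0 as lower (background 2.43%), Herc2 and Mycbp2 being the added ones. The calls depended on the block. Eluates and inputs that share a number are not pairs. With the pairs of the study's own test, described further on, 13 genes passed as higher (background 20.5%) and 2 as lower (background 20.0%).

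The median difference over the 23 genes was 0.21 on the log2 scale, beside 0.0 over all 8674 tested genes. Of the 23, 20 lay above 0 and 3 below, where 50.2% of all tested genes lay above 0. The differences ran between -0.25 and 0.87, and 5 of the 23 were at least 0.5, beside 3.97% of all tested genes. In 6 genes every eluate was above every input (background 5.29%), and in 0 genes every eluate was below every input (background 4.88%). The same 23 genes were tested when either fraction could pass the signal filter. With no filter at all, 32 genes entered, 4 passed and the median was 0.13.

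The metabolic multienzymes gave the largest differences as a group, with 2 of 3 past the cutoff and all 3 with every eluate above every input. Cad encodes the protein that carries out the opening steps of pyrimidine synthesis. Its signal was 1283, 1430, 1182 and 1597 in eluates 1 to 4, and 927, 597, 807 and 701 in inputs 1 to 4. All eluates were above all inputs, with a gap between the lowest eluate and the highest input. The mean log2 signal was 10.41 ± 0.19 in eluates and 9.55 ± 0.27 in inputs (SD, n = 4 each), a difference of 0.87 (standard error 0.19, limma adjusted p = 0.137), or 1.82-fold.

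Fasn encodes fatty acid synthase, which builds palmitate from malonyl-CoA. Its signal was 3325, 3062, 2419 and 2998 in eluates 1 to 4, and 1591, 2403, 1478 and 1408 in inputs 1 to 4. The groups only just stayed apart, since input 2 was nearly as high as eluate 3. The mean log2 signal was 11.52 ± 0.20 in eluates and 10.71 ± 0.35 in inputs (SD, n = 4 each), a difference of 0.80 (standard error 0.18, limma adjusted p = 0.143), or 1.75-fold.

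Acaca encodes the cytosolic acetyl-CoA carboxylase, which makes the malonyl-CoA that fatty acid synthase uses. Its signal was 3543, 3493, 3045 and 4422 in eluates 1 to 4, and 2969, 2927, 2433 and 2171 in inputs 1 to 4. Eluate 3 was close to inputs 1 and 2, and no input reached an eluate. The difference was 0.46 (standard error 0.19, limma adjusted p = 0.446), which did not pass the cutoff with replicate number as the block. A dimmer probeset of Acaca, with a mean signal of 132 in eluates and 131 in inputs, differed by 0.01.

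**Figure D1:**
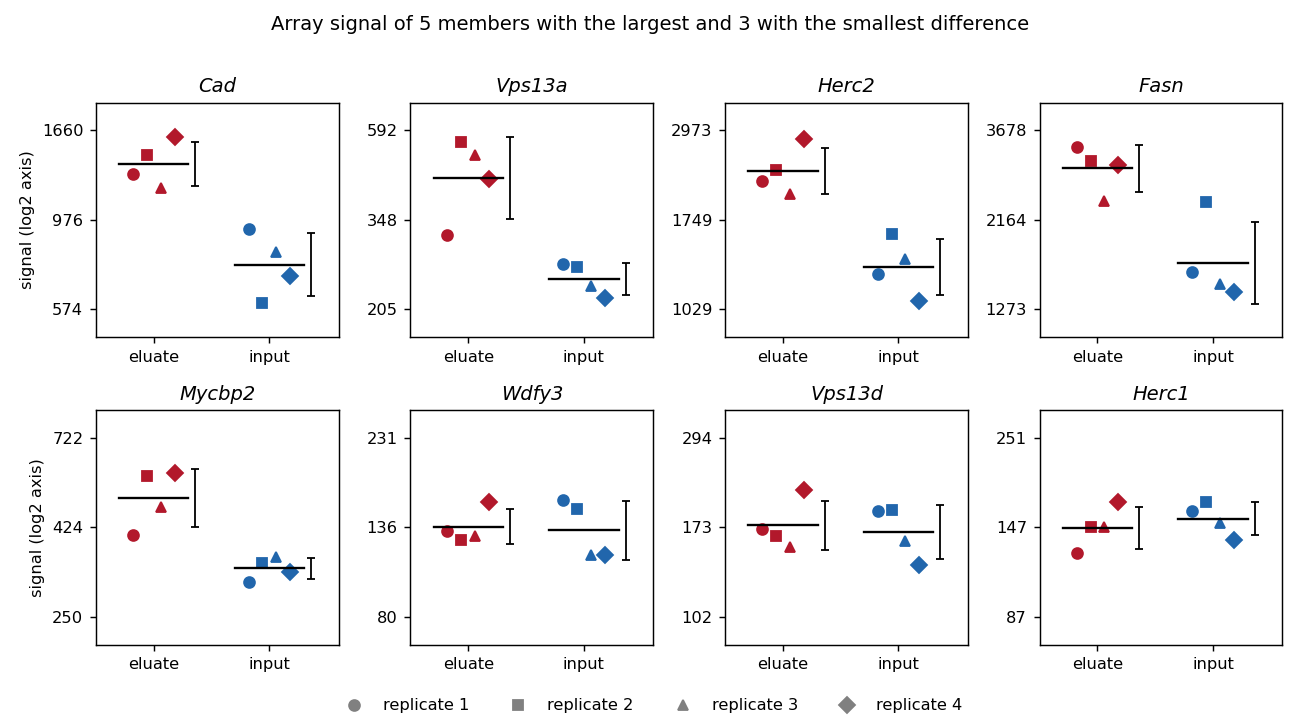
Signal on each array, on a log2 axis, of 5 genes with the largest difference (Cad, Vps13a, Herc2, Fasn, Mycbp2) and 3 with the smallest (Wdfy3, Vps13d, Herc1). Marker shapes give the replicate number, horizontal lines the mean of the log2 signal and bars its SD (n = 4), and in the first 5 genes all 4 eluates lie above all 4 inputs while in the last 3 the groups overlap.

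Among the ubiquitin ligases, which attach ubiquitin to other proteins, 5 of 8 listed genes were tested. With replicate number as the block none passed the cutoff, although Herc2 came closest to it among the 20 genes not called. With the pairs of the study's own test 3 of the 5 passed as higher, where 20.5% of all tested genes did. Herc2 encodes a giant ligase of the HECT class known from DNA damage responses. Its signal was 2202, 2344, 2039 and 2832 in eluates 1 to 4, and 1273, 1611, 1389 and 1080 in inputs 1 to 4. Every eluate was clearly above every input. The mean log2 signal was 11.19 ± 0.20 in eluates and 10.37 ± 0.24 in inputs (SD, n = 4 each), a difference of 0.82 (standard error 0.19, limma adjusted p = 0.152), or 1.76-fold.

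Mycbp2, a ligase known from axon growth and synapse formation, had a signal of 405, 575, 478 and 585 in eluates 1 to 4, and 308, 344, 357 and 327 in inputs 1 to 4. The inputs lay close together and the eluates were spread above them. The mean log2 signal was 8.98 ± 0.25 in eluates and 8.38 ± 0.09 in inputs (SD, n = 4 each), a difference of 0.60 (standard error 0.17, limma adjusted p = 0.266), or 1.52-fold.

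The other 3 tested ligases had smaller differences and overlapping groups. Trip12, which degrades ubiquitin fusion proteins, differed by 0.37 (standard error 0.17, limma adjusted p = 0.515), and its other 3 tested probesets by 0.38, 0.38 and 0.21, so that all 4 pointed the same way. Huwe1, a ligase with many substrates that include p53, differed by 0.20 and at its second tested probeset by 0.17. Herc1, a relative of Herc2, was among the genes with the smallest difference, with 127, 148, 148 and 171 in eluates 1 to 4 and 162, 171, 151 and 137 in inputs 1 to 4. Its groups overlapped fully, and the difference was -0.07 (standard error 0.17, limma adjusted p = 0.972). Usp9x, a deubiquitinase, which removes ubiquitin, differed by 0.10 at a mean signal of 119 in eluates and 110 in inputs.

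Of the genes for lipid transfer proteins of the VPS13 family, which form channels for lipids between membranes, Vps13a passed the cutoff while Vps13c and Vps13d did not. Loss of VPS13A causes chorea-acanthocytosis in humans. The signal of Vps13a was 319, 552, 511 and 444 in eluates 1 to 4, and 269, 264, 235 and 220 in inputs 1 to 4. Eluate 1 was the lowest eluate and still above all inputs. The mean log2 signal was 8.80 ± 0.35 in eluates and 7.94 ± 0.14 in inputs (SD, n = 4 each), a difference of 0.86 (standard error 0.19, limma adjusted p = 0.137), or 1.82-fold.

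The other 2 tested probesets of Vps13a were dimmer, with mean signals of 166 and 130 in eluates and 114 and 105 in inputs. They differed by 0.56 (limma adjusted p = 0.309) and 0.31 (limma adjusted p = 0.62), in the same direction and below the cutoff. With the mean over its probesets in place of the brightest one, Vps13a differed by 0.58 (limma adjusted p = 0.285) and was no longer called. Vps13c differed by 0.14 at a signal close to the filter, between 100 and 120 in eluates and between 86.9 and 108 in inputs. Vps13d, with 171, 164, 154 and 216 in eluates 1 to 4 and 190, 191, 159 and 138 in inputs 1 to 4, differed by 0.06 (standard error 0.19, limma adjusted p = 0.984). Whether Vps13a differed more than its relatives was not tested.

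With replicate number as the block, the 3 genes were no longer called when number 1 or number 3 was left out. Arrays that share a number are not pairs, so each such fit dropped arrays from different pairs of the study's own test. Without replicate 1 the limma adjusted p was 0.37 for Cad, 0.177 for Vps13a and 1.0 for Fasn, and without replicate 3 it was 0.516, 0.747 and 0.618, at differences that stayed between 0.72 and 1.06. Without replicate 2 or 4 these genes and Herc2 were past the cutoff, and without replicate 4 Mycbp2 was as well. With the pairs of the study's own test as the block, the 3 genes stayed past the cutoff whichever pair was left out. The limma adjusted p was then at most 0.00104 for Cad, 0.00768 for Vps13a and 0.00348 for Fasn. In those fits 3442 to 6078 tested probesets passed. Over all alternatives run, the limma adjusted p lay between 4.84e-12 and 0.516 for Cad, between 3.62e-16 and 0.747 for Vps13a and between 6.97e-13 and 1.0 for Fasn, the lowest values coming from fits on other pairs.

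The tested kinases of the family related to phosphatidylinositol 3-kinases were at most slightly above 0. Prkdc, the catalytic subunit of DNA-dependent protein kinase in DNA end joining, had a signal between 460 and 644 in eluates and between 434 and 491 in inputs, a difference of 0.26 (standard error 0.16, limma adjusted p = 0.689). Atm, which signals DNA double-strand breaks, differed by 0.20, and Mtor, the kinase that couples growth to nutrients, by 0.19. The groups overlapped in each of these genes. A second probeset of Mtor, annotated with another transcript, differed by -0.25 (limma adjusted p = 0.846), so the direction for Mtor depended on the probeset. With the pairs of the study's own test the limma adjusted p was 0.053 for this second probeset and 0.178 for the brightest. With those pairs Prkdc (limma adjusted p = 0.0525) and Atm (limma adjusted p = 0.133) passed as higher, where 20.5% of all tested genes did. Neither was called with the same pairs and no moderation of the variance (limma adjusted p = 0.366 and 0.378). The second tested probesets of Atm and Prkdc differed by 0.10 and 0.09.

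The genes of translation control and RNA processing did not move together. Gcn1, listed under its older symbol Gcn1l1, encodes a protein that senses colliding ribosomes and activates the kinase Gcn2. Its signal was 654, 1042, 753 and 905 in eluates 1 to 4, and 561, 537, 773 and 560 in inputs 1 to 4. Input 3 stood apart from the other inputs and reached into the eluates. The difference was 0.46 (standard error 0.20, limma adjusted p = 0.483). Dicer1, which cuts microRNA precursors, differed by 0.09.

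Cnot1, the scaffold of the CCR4-NOT complex that shortens poly(A) tails, had the most negative difference. Its signal was 522, 710, 487 and 829 in eluates 1 to 4, and 617, 1003, 717 and 673 in inputs 1 to 4. The groups overlapped, and the difference was -0.25 (standard error 0.19, limma adjusted p = 0.761).

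The next genes encode tethers and proteins with a BEACH domain, both known from vesicle traffic, and a scaffold. With replicate number as the block, none of them passed the cutoff. With the pairs of the study's own test Lrba, Gapvd1 and Htt passed as higher and Eea1 as lower. In that fit 20.5% of all tested genes were higher and 20.0% lower. Lrba, needed in immune cells to keep CTLA4 from degradation, had a signal of 797, 738, 596 and 844 in eluates 1 to 4, and 531, 537, 637 and 466 in inputs 1 to 4. Eluate 3 lay below input 3 and the other eluates above all inputs, a difference of 0.45 (standard error 0.19, limma adjusted p = 0.47). Wdfy3, which takes part in the autophagy of protein aggregates, had 133, 126, 129 and 158 in eluates 1 to 4 and 160, 151, 115 and 115 in inputs 1 to 4, with a difference of 0.03. Its eluates lay within the range of its inputs. Gapvd1, an activator of the endosomal GTPase Rab5, differed by 0.24, and Htt, the scaffold protein huntingtin, by 0.21. Eea1, which tethers early endosomes, had 120, 159, 116 and 110 in eluates 1 to 4 and 105, 147, 168 and 176 in inputs 1 to 4, a difference of -0.22 (standard error 0.20, limma adjusted p = 0.812), with overlapping groups.

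**Figure D2:**
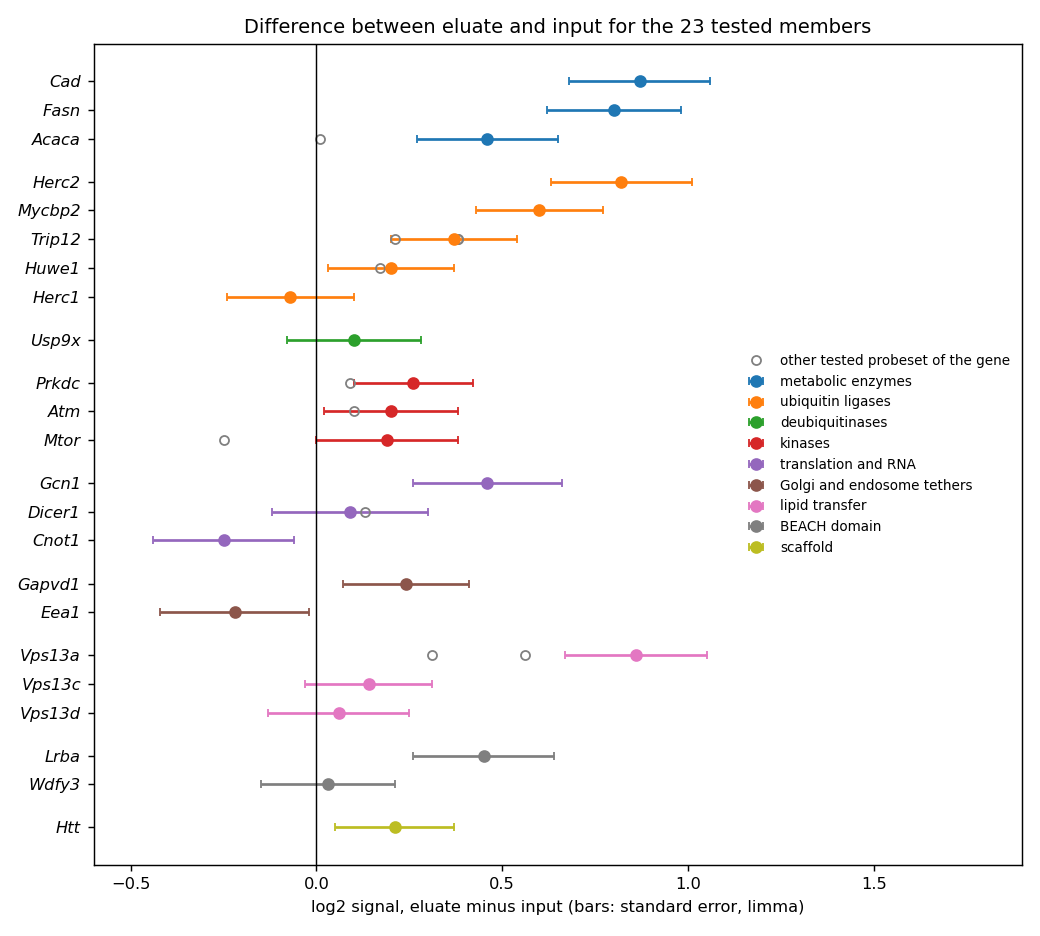
Difference of the log2 signal, eluate minus input, for the brightest tested probeset of 23 genes, ordered and coloured by role, with standard errors from limma and the other tested probesets of the same genes as open circles. The 3 metabolic enzymes lie between 0.46 and 0.87, and 20 of the 23 genes lie above 0.

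The 9 genes with a probeset that were not tested were Birc6 and Rnf213 (ubiquitin ligases), Usp34 (a deubiquitinase), Golga4, Golgb1 and Trip11 (Golgi tethers), Vps13b, and Lyst and Nbeal1 (BEACH domain). Their 22 probesets had mean signals between 54.1 and 103, and differences between -0.21 and 0.12. A further 37 probesets of the tested genes did not pass the filter either, and they differed by -0.16 to 0.13. No difference of a size like that of Cad was seen at these low signals, which are close to the median signals of the arrays.

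Among the 23 tested genes, the difference went along with the brightness of the probeset. Spearman's rho between mean log2 signal and difference was 0.60 over the 23 genes and -0.06 over all 8674 tested genes, given as a description, since all points share the same 8 arrays. The 6 genes with a mean signal under 200 lay between -0.22 and 0.14, while the other 17 had a median of 0.37 and 16 of them lay above 0. The probesets of 17 genes were annotated with a RefSeq mRNA accession, and all 17 lay above 0, with a median of 0.37. The other 6 genes, Atm, Vps13d, Wdfy3, Herc1, Eea1 and Cnot1, had a median of -0.02, with 3 above 0. Over all tested genes, 51.9% of those with such an accession and 30.3% of the others lay above 0. These splits were made after the values had been seen, and the part of probe brightness and annotation in the results was not tested.

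The replicate numbers in the labels did not pair the eluates with the inputs, so the same differences were also fitted with other pairs. The study's own paired test used eluate 1 with input 2, eluate 2 with input 3, eluate 3 with input 4 and eluate 4 with input 1, as found by matching its p-values. With these as the block, 13 of the 23 genes passed in limma as higher and 2 as lower, against 20.5% and 20.0% of all tested genes, while the differences themselves stayed as given above. The adjusted p was 4.84e-12 for Cad, 5.24e-11 for Vps13a, 1.08e-10 for Herc2, 1.74e-10 for Fasn and 1.82e-06 for Mycbp2. Acaca (adjusted p = 0.000161), Gcn1 (0.000214), Lrba (0.000278) and Trip12 (0.00335) followed, and Prkdc, Gapvd1, Htt and Atm lay between 0.0525 and 0.133. Cnot1 (adjusted p = 0.0816) and Eea1 (adjusted p = 0.0935) were the 2 called lower. With the same pairs and no moderation of the variance neither was called (limma adjusted p = 0.634 and 0.41), and the count of lower genes was 0. In that fit 7 genes passed as higher, and 2069 of the 13902 tested probesets passed in either direction. The limma adjusted p was 0.0837 for Cad, 0.113 for Fasn and 0.126 for Herc2, while Vps13a (0.169) and Mycbp2 (0.156) were not called. The moderated fit on the pairs had a variance prior of 125 degrees of freedom, beside 3 residual ones. Without the pair of eluate 1 Cnot1 differed by -0.02 (adjusted p = 0.937) and Eea1 by -0.20 (adjusted p = 0.18), and without the pair of eluate 3 they differed by -0.18 (adjusted p = 0.385) and -0.10 (adjusted p = 0.666). Eea1 was not called without the pair of eluate 2 either (adjusted p = 0.159).

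Within these pairs, 11 of the 23 genes were higher in the eluate in all 4 pairs, as were 23.6% of all tested genes. None was lower in all 4 pairs, as were 17.2% of all tested genes. Cad was 1.10, 0.82, 0.75 and 0.78 higher in the eluate in the pairs of eluates 1 to 4, and Vps13a was 0.27, 1.23, 1.21 and 0.73 higher. The pair of eluate 1 thus gave the smallest value for Vps13a and the greatest for Cad. Acaca was 0.28, 0.52, 0.49 and 0.57 higher, with its pairs close together. Cnot1 was not of 1 sign, at -0.94, -0.01, -0.46 and 0.43.

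The fraction differences were also read on each side of the first principal component, where 2 eluates and 2 inputs lay together in a set. Herc2 was 0.80 and 0.84 higher in the eluates of the 2 sets, Mycbp2 0.58 and 0.62, and Gcn1 0.49 and 0.43. Vps13a was 0.50 higher in the set with eluates 1 and 4 and 1.22 higher in the other. Of the 23 genes, 19 had the same sign in both sets. With the set as a block, 10 genes passed as higher, against 15.5% of all tested genes, and 0 as lower, against 14.6%.

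**Figure D3:**
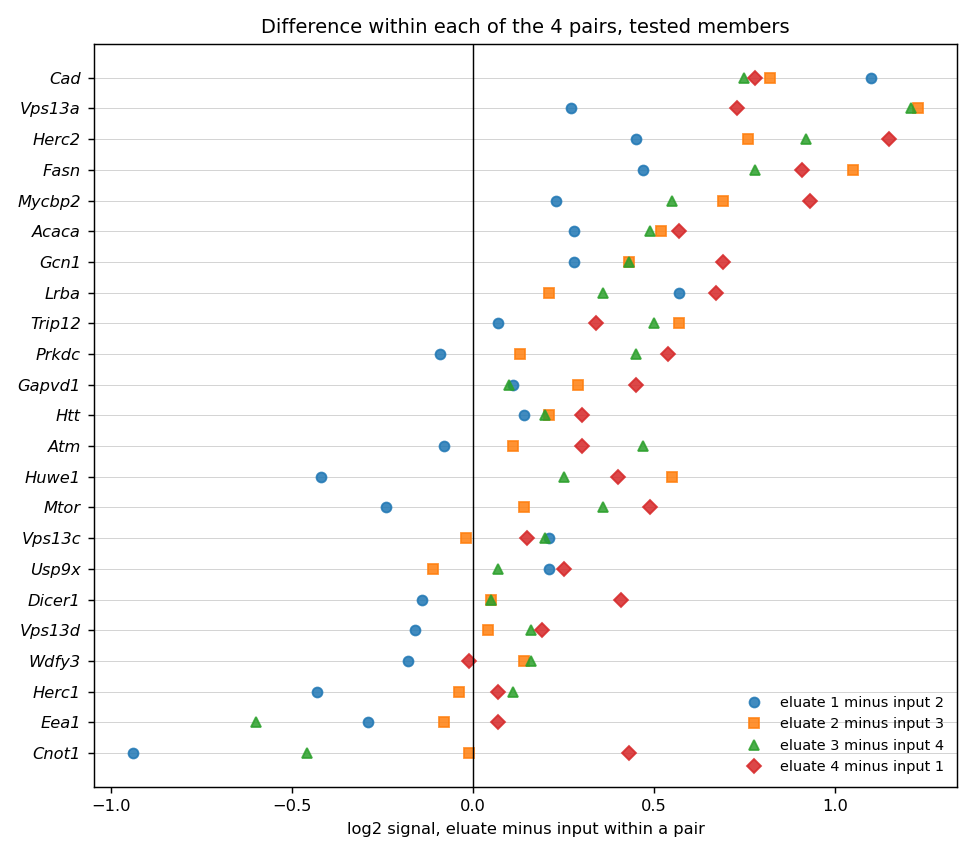
Difference of the log2 signal, eluate minus input, within each of the 4 pairs of the study's own test for the 23 tested genes, ordered by their mean difference. From Cad to Trip12 all 4 pairs lie above 0, and Cnot1 spreads between -0.94 and 0.43.

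Partners and relatives of these proteins, 99 genes listed by known function, had a median difference close to that of all tested genes. Of them 81 were tested, 0 passed the cutoff in either direction in limma, and 7 were higher and 3 lower at an unadjusted p under 0.05 (background 5.73% and 4.4%). With the pairs of the study's own test as the block, 19 were higher and 11 lower in limma, where 20.5% of all tested genes were higher and 20.0% lower. Their median was 0.02, with 43 above 0 and 38 below. By role the medians were 0.16 for 12 metabolic genes, 0.13 for 10 kinase partners, 0.04 for 22 genes of the ubiquitin system, -0.02 for 6 BEACH and scaffold genes, and -0.04 each for 17 RNA genes and 14 tether genes.

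The 3 largest differences of partners were those of Cnot7, Nedd4l and Nedd4. Cnot7, a deadenylase of the CCR4-NOT complex, had a signal of 1414, 1306, 1298 and 2138 in eluates 1 to 4, and 2402, 2716, 2555 and 2131 in inputs 1 to 4. Eluate 4 stood above the other eluates and just reached the lowest input. The difference was -0.70 (standard error 0.21, limma adjusted p = 0.298, and 4.35e-08 with the pairs of the study's own test). Nedd4l and Nedd4, ligases of the HECT class that are smaller than Herc2, both had every eluate above every input. Nedd4l differed by 0.67 (standard error 0.20, limma adjusted p = 0.296, and 5.73e-08 with the pairs of the study's own test). Nedd4 differed by 0.61 (standard error 0.17, limma adjusted p = 0.272, and 7.32e-07 with those pairs).

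The partners of Cnot1 in the CCR4-NOT complex were singled out after their values were seen. Of 10 listed, 9 were tested, with 8 below 0, 1 above 0 and a median of -0.23. The difference was -0.58 for Cnot6, -0.36 for Cnot6l, -0.30 for Cnot9 and -0.23 for Cnot2, while Cnot3, Cnot4, Cnot10 and Cnot11 lay between -0.05 and 0.05. None passed the cutoff in the fit blocked by replicate number, and 5 of the 9, Cnot7 among them, were lower with the pairs of the study's own test, where 20.0% of all tested genes were. Of the 12 tested metabolic partners, 9 lay above 0 and 3 below. With the pairs of the study's own test 4 were higher, where 20.5% of all tested genes were, and 0 lower. These 4, named after their values were seen, were Hmgcs1 of sterol synthesis, with a difference of 0.52, Acly, which supplies cytosolic acetyl-CoA, with 0.47, and the desaturases Scd1 and Scd2, with 0.38 and 0.31. The other 8 lay between -0.18 for Elovl1 and 0.19 for Umps.

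Transcripts of large actin-associated proteins, which were in part chosen from results of these arrays and so give no independent comparison, differed far more. Of 19 listed, 16 were tested and 13 passed the cutoff, all higher in the eluates and all at least 2-fold. Their differences were between 1.72 for Myh9, a heavy chain of nonmuscle myosin II, and 3.65 for Dbn1, the actin-binding protein drebrin. The very large cytosolic proteins had a median of 0.21 over 23 genes, with a highest value of 0.87, beside a median of 1.99 over the 16 genes of the actin-associated list. The difference between the lists was not tested, and the sizes of their proteins were not compared. Not all listed genes were called. Tln1, a talin, differed by 0.67 (limma adjusted p = 0.334, and 5.14e-08 with the pairs of the study's own test). Macf1, a giant linker of actin and microtubules, had -0.11 (limma adjusted p = 0.931) and Tln2, another talin, 0.13 (limma adjusted p = 0.931). The probesets of Macf1 and Tln2 were dim, with mean signals of 154 and 129 in eluates and 167 and 118 in inputs. Neither was annotated with a RefSeq mRNA accession. The probesets of Dst and Actn1 in the same list were not either, and these genes passed the cutoff. They differed by 1.93 (limma adjusted p = 0.00174) and 1.86 (limma adjusted p = 0.00592). The part of brightness and annotation in these values was not tested.

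**Figure D4:**
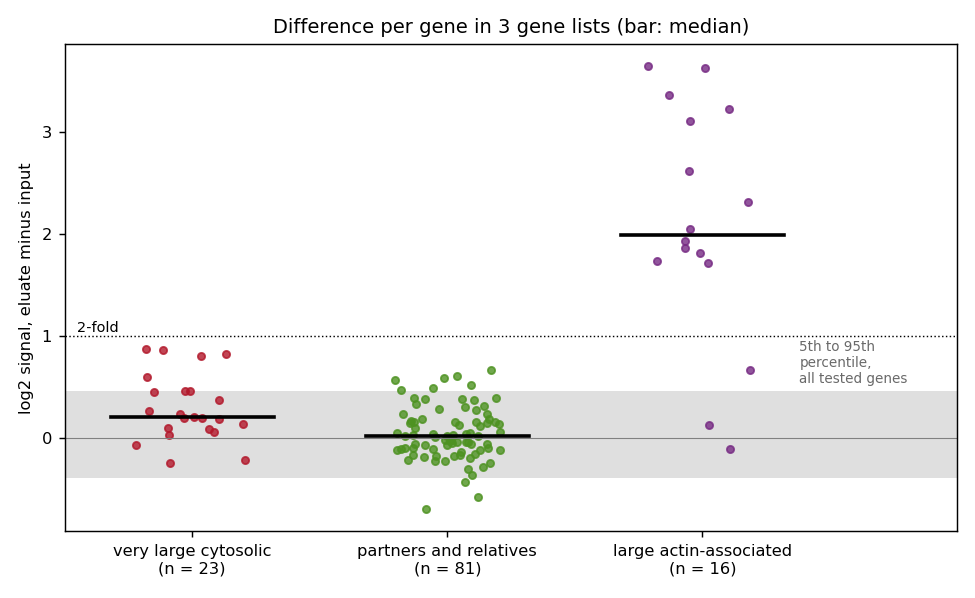
Difference of the log2 signal, eluate minus input, per gene (points) with the median (bar) for 23 very large cytosolic proteins, 81 partners and relatives, and 16 large actin-associated proteins, with the band from the 5th to the 95th percentile of all tested genes (-0.39 to 0.46) in grey. No very large cytosolic protein reaches the dotted 2-fold line, and 13 of the 16 actin-associated proteins lie above it.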

How the data were processed

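The deposited series table holds the log2 of the authors' array signal for 8 arrays, and the submitters' processing notes list BeadStudio and Partek 6.4. How the arrays were normalized to each other is not stated in the sources used here. In other tables, 24 columns of per-sample values match no sample label and were not used, nor were the authors' own fold changes, except that their p-values served to find which of 24 pairings of eluates and inputs the study had tested. Of the probesets, 32794 had 1 annotated gene symbol, 55 several and 13794 none, and symbols were updated through Entrez IDs.

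Signals were tested with limma 3.58.1 (lmFit and eBayes) in R 4.3.3, blocked by replicate number, where 3 or more eluate arrays had a signal of 100 or more. The Benjamini-Hochberg adjustment ran over 13902 probesets. Other values were computed in Python 3.11.15 with pandas 2.3.3. The script was tested on simulated data. Same-numbered eluates and inputs deviated together for numbers 1 and 3 but not for 2 and 4, so the numbers do not pair the samples. The correlation of their deviations from the fraction means was 0.47, -0.66, 0.74 and -0.76 for numbers 1 to 4. The study calls its pulldowns independent. Whether each came from a culture of its own is not stated, so p-values cover only the variation among these arrays, part of which may be technical. The number of arrays limits the precision.

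All 33 genes are named, with values per array for those past the cutoff, those with a difference of at least 0.5, the 3 smallest and some others added after their values were seen. Of the partners, the 3 largest are named by rule. The genes and lists were chosen with earlier results of these data known. A planned comparison by protein length was not made. The alternatives were other blocks, quantile normalization, normexp background correction, other filters and cutoffs, no moderation of the variance, the mean over probesets, and leaving out each replicate number. A fit on the study's pairs with no moderation, and leaving out each of these pairs, were added after the data had been seen.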

Additional observations from a re-analysis of the deposited data

Results flagged for a closer look

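The signal of Gcn1 in input 3 was 773, or 9.59 on the log2 scale, while the other 3 inputs lay between 9.07 and 9.13. The gap to the nearest of them was 0.88 of the range of the 4 inputs, above Dixon's critical value for 4 values. This was 1 of 52 groups of 4 arrays looked at, and chance flags about 1 in 20 groups.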

How the results depend on the processing

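The main count of 3 genes past the cutoff was 5 with no replicate block, 13 with the pairs of the study's own test, 10 with the 2 sets of arrays, 5 after quantile normalization, 0 at an adjusted p of 0.05, 0 with no moderation of the variance, and 7 with those pairs and no moderation, where Vps13a was lost. With the mean over a gene's probesets Vps13a was lost as well, and the count was 2. It was 0 to 5 on leaving out a replicate number, and 10 to 15 on leaving out a pair. The count of lower genes was 0 in the main fit, 2 with the pairs, 0 with the pairs and no moderation, and 0 to 2 on leaving out a pair. Tested probesets past the cutoff numbered 156 in the main fit, 832 with no replicate block, 5539 with the pairs, 4124 with the sets, 813 after quantile normalization, 390 with no filter, 84 at 0.05, 0 with no moderation (limma), 2069 with pairs and no moderation, 53 to 1474 without a replicate number and 3442 to 6078 without a pair. Partners called higher numbered 0 in the main fit, 5 with no replicate block, 19 with the pairs, 18 with the sets, 5 after quantile normalization, 1 with no filter, 12 with pairs and no moderation, 0 to 4 without a replicate number and 16 to 24 without a pair. The median difference over the genes was between 0.13 and 0.37 under all alternatives run. The sign turned for Mtor with the mean over probesets (-0.03), and on leaving out replicate numbers or pairs for Usp9x (-0.05 to 0.17, negative without replicate 4), Dicer1 (-0.14 to 0.24 without numbers, -0.01 to 0.17 without pairs, negative without replicate 4 and without the pair of eluate 4), Vps13d (-0.14 to 0.15, negative without replicate 4), Wdfy3 (-0.12 to 0.12 without numbers, -0.02 to 0.10 without pairs, negative without replicate 3 or 4 and without the pair of eluate 2 or 3) and Herc1 (-0.20 to 0.02 without numbers, -0.13 to 0.05 without pairs, positive without replicate 1 and without the pair of eluate 1). Of 514 values over 26 genes, 387 kept direction and side of the cutoff, 102 came past it, 14 dropped out and 11 turned. The cause was not tested, except that a stricter cutoff by construction calls fewer genes. The variance prior had 6.51 degrees of freedom with the replicate numbers and 125 with the pairs.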
